A study of Mus musculus with 12 samples.

Results

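Aminoacyl-tRNA synthetases are the enzymes that attach each amino acid to its transfer RNA. The genes described here are the protein-coding genes whose symbols name a synthetase for cytosolic or mitochondrial translation. The rule that picks them reads symbols only, and no measured value enters it. They number 37 of the 55586 genes in the deposited count table: 20 encode cytosolic enzymes and 17, whose symbols end in 2, encode mitochondrial ones. Among the 20, Gars and Kars are known to serve both compartments, and Qars has no mitochondrial counterpart. All 37 passed the filter on low counts, which kept 13474 genes.

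Total RNA was sequenced from cultured mouse peritoneal macrophages in 12 libraries, 3 in each of 4 groups. Cells were left untreated (control), given interferon gamma (IFN-γ) alone, given Remodelin hydrobromide alone, or given Remodelin hydrobromide and then IFN-γ. The labels give no dose, time, strain, age, sex or number of animals. They also leave unsaid whether the 3 libraries per group are separate cultures or mice, and the p-values may therefore reflect technical spread alone. Remodelin is a small molecule described as an inhibitor of NAT10, the acetyltransferase that places N4-acetylcytidine on RNA, and the series title places the study in hepatocellular carcinoma.

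Each synthetase recognises 1 amino acid and its set of transfer RNAs, and the bifunctional Eprs gene product charges both glutamic acid and proline. Cytosolic enzymes serve nuclear-encoded messages, while separate nuclear genes supply most mitochondrial enzymes. Uncharged transfer RNA activates the kinase GCN2, phosphorylated eIF2α then favours translation of the transcription factor ATF4, and many cytosolic synthetase genes are known ATF4 targets together with genes of amino acid synthesis and uptake. In macrophages, Wars is also known as an IFN-γ-inducible gene.

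The libraries held 15917454 to 19418665 counts, and the lowest count of any synthetase in any library was 48, for Nars2. Summed macrophage markers lay between 15020 and 25300 CPM (counts scaled to a common library size), and none of the 10 was at 0. Of 13 tested genes of the IFN-γ response, 0 passed the test between the libraries labelled IFN-γ and control, at an adjusted or an unadjusted p under 0.05, and the median log2 difference was 0.063. Between the libraries with both agents and those with Remodelin, 0 of the 13 passed, 10 were above 0, the median was 0.30, and Gbp2 (0.81 ± 0.17) and Gbp3 (0.96 ± 0.43; SE) had an unadjusted p under 0.05 in edgeR (adjusted p = 0.636 for both). In the average of the Remodelin differences without and with IFN-γ, Cxcl10, Ciita and Irf1 of that list fell, with log2 fold changes of -1.47, -1.31 and -0.47. Of all genes tested, 4.8% fell in that average at an adjusted p under 0.05 in edgeR. Marker sums of the other cell types read, except fibroblasts, were lower in both Remodelin groups. Mesothelial markers summed to 87.8 to 119 CPM in the 6 libraries without Remodelin and 47.1 to 66.0 CPM in the 6 with it, neutrophil markers to 68.6 to 82.8 and 51.8 to 56.4 CPM, and B cell markers to 15.95 to 21.7 and 10.5 to 12.8 CPM, with none of the 7, 7 and 6 markers at 0. T cell sums were 0.489 to 1.36 and 0.256 to 0.466 CPM, mast cell sums 3.21 to 4.76 and 1.25 to 3.11 CPM, dendritic cell sums 11.04 to 12.6 and 8.18 to 10.9 CPM, and fibroblast sums overlapped, at 324 to 618 and 266 to 468 CPM. In the presence of IFN-γ, fibroblast sums were 324 to 395 CPM without Remodelin and 315.5 to 431 CPM with it. The markers that fell in the same average (edgeR, adjusted p under 0.05) were Upk3b, Upk1b and Krt19 of mesothelial cells (log2 -1.80, -0.56 and -0.71), Mmp9 and Mmp8 of neutrophils (-1.24 and -1.30), Ighm of B cells (-0.92) and Col3a1 of fibroblasts (-0.93). No marker of these lists rose at that threshold, and 2.24% of all genes did. For 3.42% of all genes, taken singly, the 6 Remodelin libraries all lay below the other 6. However, 2 of the 7 mesothelial markers lay above 0, up to 0.64, both at an unadjusted p under 0.05 in edgeR. Of the 5 fibroblast markers 2 lay above 0, and the list median was -0.028. All 4 tested neutrophil and 5 tested B cell markers lay below 0. The part of these cells in the results was not tested, and in bulk RNA fewer cells of a type cannot be told apart from less RNA per cell.

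Cytosolic synthetase messages were more abundant than mitochondrial ones in untreated macrophages. On the length-corrected FPKM scale, the 20 cytosolic genes had control means from 2.28 (Eprs) to 49.0 (Sars), with a median of 14.3. Sars, the seryl enzyme, stood at 49.0 ± 9.79 FPKM (SD, n = 3), above Gars at 26.4 ± 0.642, Wars at 25.3 ± 1.84 and Nars at 24.0 ± 1.89, whose levels lay within about 1 SD of each other. The 17 mitochondrial genes ranged from 0.479 (Nars2) to 30.1 (Lars2) FPKM, with a median of 2.43. Lars2 stood apart from its class with an SD of 14.4, and the next mitochondrial gene, Fars2, had 4.12 ± 0.674 FPKM.

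With Remodelin, most cytosolic synthetase messages lay higher and fewer of the mitochondrial ones did. The comparison averaged the Remodelin difference without and with IFN-γ over all 12 libraries, and a gene was called at a Benjamini-Hochberg adjusted p under 0.05 in edgeR's quasi-likelihood test. Among the 20 cytosolic genes, 2 rose (Eprs and Gars) and 1 fell (Farsa), and 15 had a log2 fold change above 0, with a median of 0.23. Among the 17 mitochondrial genes, 2 rose (Wars2 and Lars2) and 1 fell (Cars2), and 7 were above 0, with a median of -0.055. Over all genes tested the median was 0.029, 7191 of 13474 were above 0, and 7.04% were called, 2.24% higher and 4.8% lower. At an unadjusted p under 0.05, 10 cytosolic and 7 mitochondrial genes passed, beside 26.1% of all genes.

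**Figure D1:**
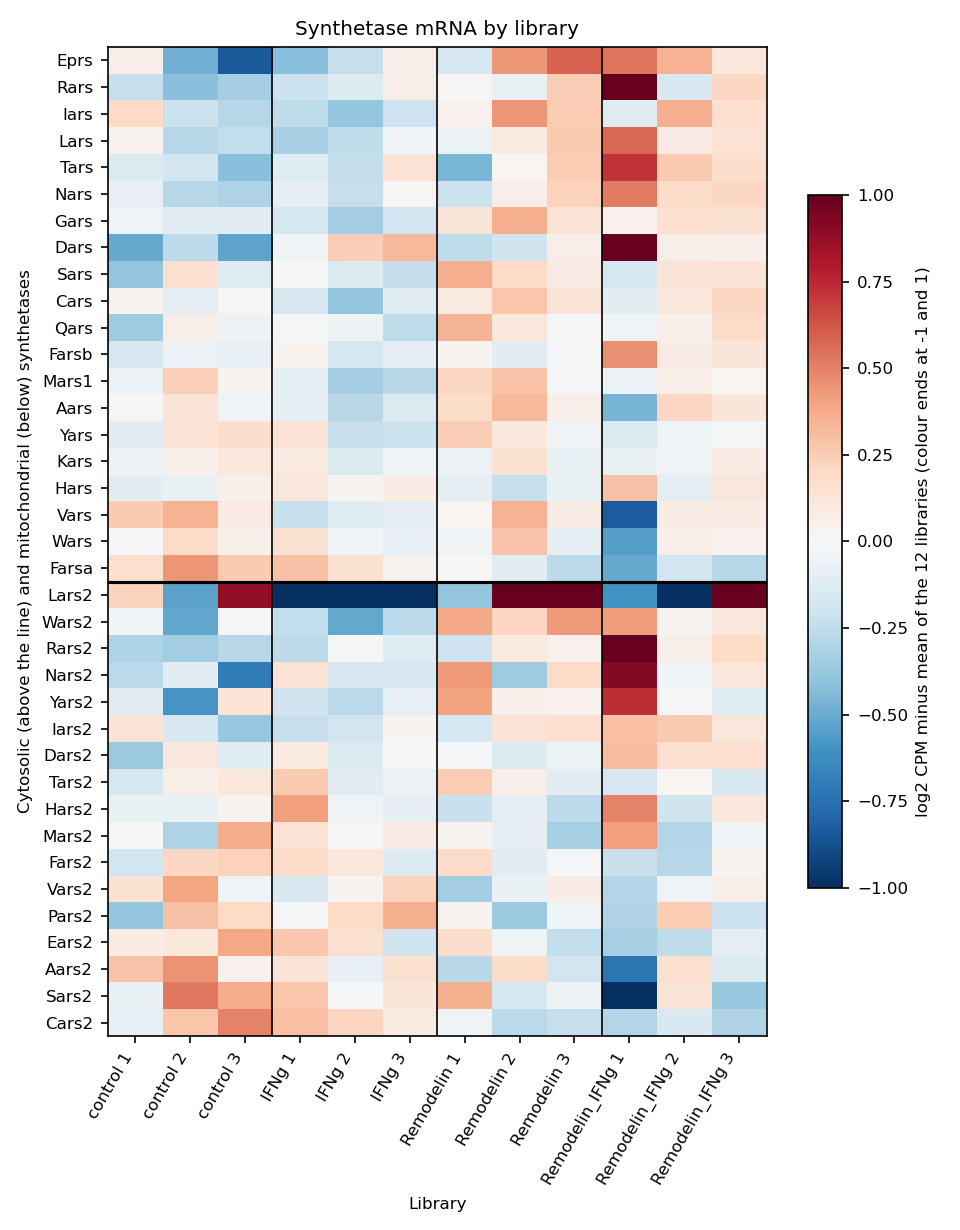
Log2 CPM of the 37 synthetases in each of the 12 libraries, minus the gene's mean over the libraries; the colour scale ends at -1 and 1. Genes are ordered by their average Remodelin difference within each class; the cytosolic genes at the top are mostly red in the Remodelin columns, Lars2 exceeds the scale in several libraries, and Remodelin_IFNg replicate 1 differs from its 2 partners in many rows.

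Summed over the 20 cytosolic genes, the libraries without Remodelin held 1424 to 1624 CPM and those with it 1684 to 1808 CPM, so the ranges did not overlap. The mitochondrial genes without Lars2 summed to 190 to 211 CPM without Remodelin and 196 to 221 CPM with it, and these ranges overlapped. The sums are a description, and Sars, the most abundant message, contributes most to the cytosolic one. The share of other gene sets separated in this way is not given here. By library, the median log2 deviation of the 20 cytosolic genes from their means was -0.203 to -0.0559 without Remodelin. With it the range was -0.0467 to 0.136. The lowest of these, in Remodelin_IFNg replicate 1, lay close to control replicate 1 (-0.0559).

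Eprs, which encodes the joined glutamyl- and prolyl-tRNA synthetase of the cytosol, had the largest cytosolic rise. Its level was 56.5, 38.7 and 30.1 CPM in the control libraries, 40.2, 45.9 and 55.9 with IFN-γ, 48.0, 72.8 and 81.4 with Remodelin, and 78.2, 68.4 and 57.9 with both. The groups with Remodelin lay higher on average, but Remodelin replicate 1 fell within the range of the untreated libraries. The log2 fold change was 0.61 ± 0.16 (SE; adjusted p = 0.0329, edgeR).

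Gars, the glycyl-tRNA synthetase that serves both compartments from 1 gene, rose in every Remodelin library. It was at 86.1, 81.5 and 81.7 CPM in control, 78.1, 69.2 and 77.3 with IFN-γ, 96.0, 113 and 97.0 with Remodelin, and 90.9, 99.2 and 98.4 with both, so the 6 Remodelin libraries all lay above the other 6. Over all genes, 1.24% were separated in this way with the Remodelin libraries higher. Its log2 fold change was 0.33 ± 0.09 (SE; adjusted p = 0.0416, edgeR).

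Iars, Nars, Lars and Rars, the isoleucyl, asparaginyl, leucyl and arginyl enzymes, missed the threshold. Their log2 fold changes were 0.38 ± 0.12, 0.33 ± 0.11, 0.37 ± 0.12 and 0.48 ± 0.16 (SE), with adjusted p of 0.0668, 0.0708, 0.0739 and 0.0805 in edgeR. The Rars value leaned on 1 library: Remodelin_IFNg replicate 1 held 119 CPM, and its 2 partners 51.3 and 66.2 CPM. Kars, the lysyl enzyme, and Hars, the histidyl enzyme, had log2 fold changes of -0.0038 ± 0.10 and -0.02 ± 0.10, and Qars, the glutaminyl enzyme, 0.22 ± 0.11 (SE; adjusted p = 0.984, 0.901 and 0.205).

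Kars was at 79.1, 84.8 and 88.3 CPM in control, 87.5, 74.1 and 79.4 with IFN-γ, 78.6, 91.2 and 77.6 with Remodelin, and 77.7, 79.9 and 86.7 with both. Hars was at 50.9, 52.3 and 56.9 CPM in control, 59.4, 56.2 and 57.8 with IFN-γ, 51.4, 46.9 and 52.4 with Remodelin, and 67.2, 51.6 and 59.5 with both. Qars was at 114, 152 and 140 CPM in control, 144, 141 and 122 with IFN-γ, 184, 158 and 145 with Remodelin, and 142, 151 and 167 with both. The libraries with and without Remodelin overlapped for all 3 genes.

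Farsa, the α subunit of cytosolic phenylalanyl-tRNA synthetase, moved against its class. It was at 48.7, 59.2 and 52.3 CPM in control, 53.5, 48.5 and 44.7 with IFN-γ, 43.9, 40.5 and 36.4 with Remodelin, and 30.7, 38.1 and 35.8 with both. All 6 Remodelin libraries lay below the other 6, as did 3.42% of all genes. The log2 fold change was -0.45 ± 0.11 (SE; adjusted p = 0.0198, edgeR), the smallest adjusted p of the 37.

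Farsb encodes the β subunit that pairs with Farsa in the active enzyme, and its values overlapped between the groups. Its level was 56.7, 61.1 and 60.3 CPM in control, 65.1, 56.3 and 59.3 with IFN-γ, 64.96, 58.9 and 62.8 with Remodelin, and 87.2, 67.0 and 69.3 with both, with a log2 fold change of 0.19 ± 0.10 (SE; adjusted p = 0.243). The CPM ratio of Farsa to Farsb was 0.753 to 0.969 in the 6 libraries without Remodelin and 0.352 to 0.688 in the 6 with it. The log2 ratio of Farsb to Farsa was higher by 0.63 with Remodelin (two-sided exact permutation of libraries within each IFN-γ level, p = 0.005, the smallest of 400 splits; 0.0238 adjusted over 19 ratios). This ratio test was added after the data were seen.

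**Figure D2:**
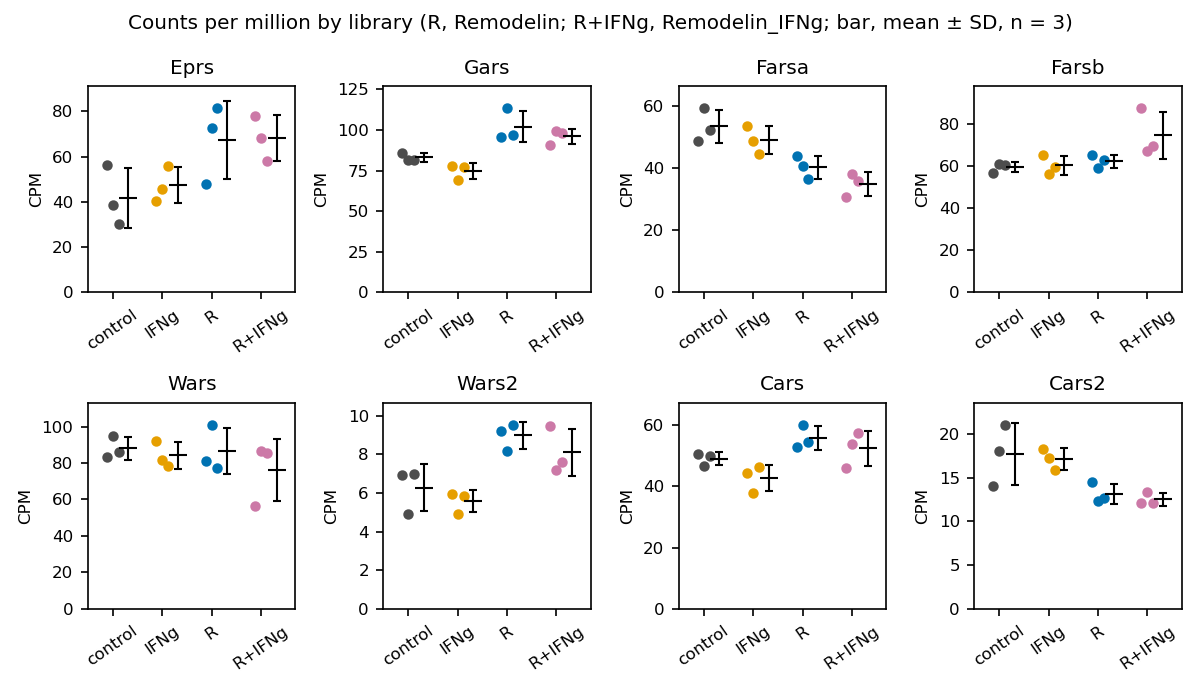
CPM of 8 synthetases in each library (points) with the group mean ± SD (bar, n = 3); each axis starts at 0. Gars and Wars2 lie higher and Farsa lower in all 6 Remodelin libraries (R, R+IFNg), while Farsb and Wars overlap between groups.

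The Remodelin fold changes also followed GC content. Across the 37 synthetases the average log2 fold change fell with the GC content of the longest transcript (Spearman rho = -0.511), and over 13339 genes with a GC value rho was -0.501. These are descriptions, since genes share the same libraries. Remodelin_IFNg replicate 1 was the most tilted library, with a rho of -0.69 between its deviations and GC content. By library, this rho ran from -0.168 to 0.55 without Remodelin and from -0.69 to 0.264 with it, so the ranges overlapped.

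When each library's trends with GC content and transcript length were removed, more cytosolic genes passed the test. In that fit 10 cytosolic synthetases rose (Gars, Cars, Mars1, Eprs, Sars, Aars, Iars, Nars, Lars and Qars), 1 fell (Farsa), and the class median was 0.28. In the mitochondrial class 2 rose (Wars2 and Lars2) and 1 fell (Cars2), with a median of -0.028. Over all genes 11.3% were called, 5.04% higher and 6.23% lower. The standard errors were smaller for most members: Cars, the cysteinyl enzyme, went from 0.24 ± 0.10 to 0.39 ± 0.08, Sars from 0.24 ± 0.11 to 0.37 ± 0.08 and Aars, the alanyl enzyme, from 0.16 ± 0.12 to 0.29 ± 0.06 (SE).

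These calls were also followed with each library left out, a check added after the data were seen. With the trends removed, Aars, Cars, Eprs, Gars, Iars, Mars1 and Sars stayed higher and Farsa and Cars2 lower in all 12 such fits, and 8 to 11 cytosolic and 1 to 3 mitochondrial genes were called, while 6.21% to 14.6% of all genes were. Lars2 was called in 4 and Wars2 in 3 of those 12. Without the trend removal the calls were less steady. No synthetase was called without control replicate 2, IFNg replicate 1, IFNg replicate 2 or Remodelin replicate 3, and without Remodelin replicate 2 only Farsa was. Of the 6, Farsa and Lars2 were called without control replicate 3, Eprs and Farsa without IFNg replicate 3 or Remodelin_IFNg replicate 3, and Gars, Lars2 and Farsa without Remodelin_IFNg replicate 1, which also added Iars. Calls numbered 7 without Remodelin_IFNg replicate 2, 9 without control replicate 1 and 10 without Remodelin replicate 1. Over all genes these fits called 1065, 1739 and 1960, and the main fit 949. The fits that called no synthetase, in the order given, called 298, 310, 373 and 428 of all genes.

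**Figure D3:**
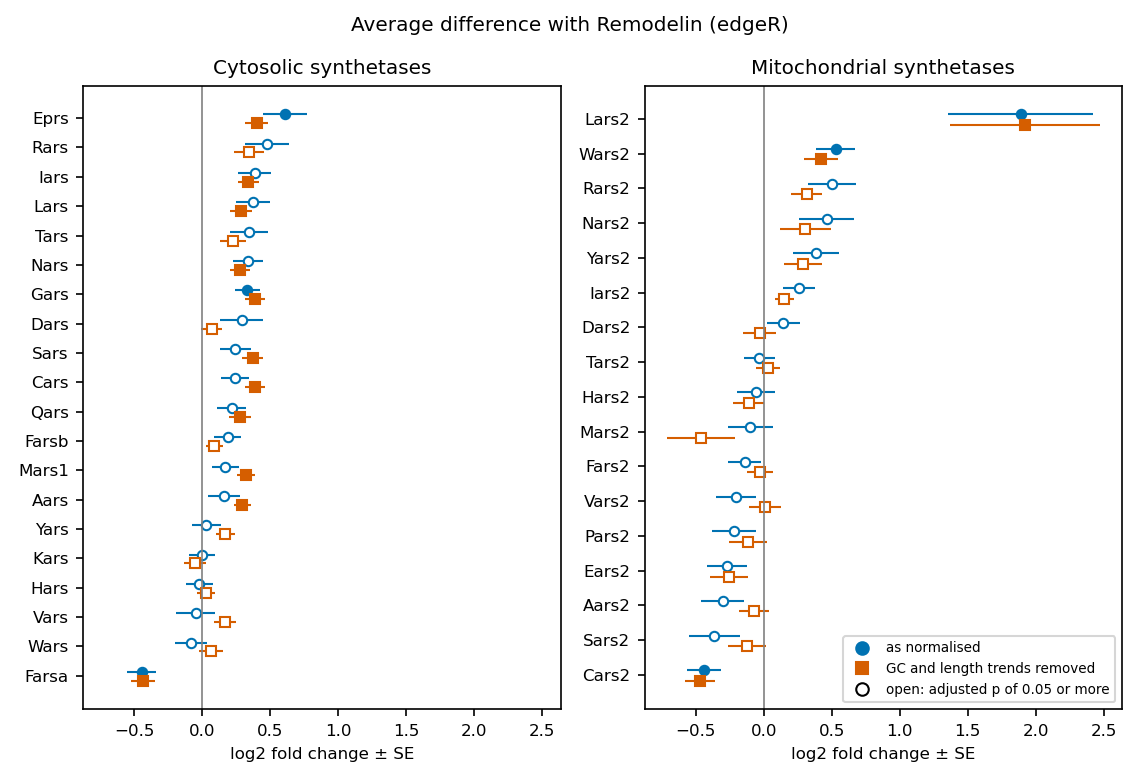
Average log2 fold change with Remodelin ± SE for each synthetase, as normalised (blue circles) and with GC and length trends removed (orange squares); filled symbols have an adjusted p under 0.05. The cytosolic panel has 3 filled circles and 11 filled squares, and the mitochondrial panel 3 of each.

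The cytosolic genes on a literature list of ATF4-linked synthetases accounted for both rises. Of those 12 genes (Aars, Cars, Eprs, Gars, Iars, Lars, Mars1, Nars, Sars, Tars, Wars and Yars), 2 rose, 0 fell and 11 were above 0, with a median log2 fold change of 0.29. Of the 8 other cytosolic genes, 0 rose, 1 fell and 4 were above 0, with a median of 0.09. Over all genes 2.24% rose and 4.8% fell. With the GC and length trends removed, 9 of the 12 and 1 of the 8 rose, beside 5.04% of all genes. The difference between these lists was not tested.

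Enzymes of the multisynthetase complex, a cytosolic particle that holds 8 of the enzymes, had a median log2 fold change of 0.33 with 1 called (Eprs), and the 12 outside it a median of 0.17 with 1 higher and 1 lower. Among the 3 scaffold proteins of the complex Aimp1 rose by 0.46 ± 0.13 (SE; adjusted p = 0.0395, edgeR). Its mean went from 41.1 ± 4.42 CPM in control to 53.7 ± 4.39 with Remodelin, and from 47.0 ± 5.12 with IFN-γ to 68.2 ± 19.3 with both (SD, n = 3). With the trends removed, 5 of the 8 enzymes and 0 of the 3 scaffold genes were called, beside 11.3% of all genes. By catalytic fold, the 19 class I enzymes had a median of 0.24 and the 18 class II enzymes 0.07, with 4 and 2 called. In the main fit 7.04% of all genes were called.

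ATF4 targets of other functions were read beside the synthetases. Of 26 listed targets that are no synthetase, 13 rose, 0 fell and 23 were above 0, with a median log2 fold change of 0.45. Of all genes, 2.24% rose and 4.8% fell. The difference from the synthetases was not tested. Mthfd2, a mitochondrial one-carbon enzyme, went from 65.3 ± 3.54 CPM in control to 115 ± 4.98 with Remodelin and from 53.3 ± 3.21 with IFN-γ to 115 ± 9.51 with both (SD, n = 3), a log2 fold change of 0.96 ± 0.09 (SE; adjusted p = 1.66e-05, edgeR). Asns, which makes asparagine, changed by 0.90 ± 0.11, Chac1, a glutathione-degrading enzyme, by 1.13 ± 0.15, and Nupr1, a stress-induced nuclear protein, by 1.07 ± 0.17 (SE; adjusted p = 0.000138, 0.000433 and 0.00159). With 1 library left out, 9 to 16 of the 26 rose and 0 fell, and the median stayed between 0.42 and 0.57. In those fits 80 to 815 of all genes rose, against 302 in the main fit. With the trends removed 21 of the 26 rose and 0 fell, beside 5.04% and 6.23% of all genes.

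The message of Atf4 itself had a log2 fold change of 0.31 ± 0.11 (SE; adjusted p = 0.0819), with group means of 354 ± 36.8 CPM in control, 360 ± 12.99 with IFN-γ, 458 ± 71.0 with Remodelin and 428 ± 39.8 with both (SD, n = 3). Eif2ak4, which encodes GCN2, had 0.37 ± 0.16 (SE; adjusted p = 0.156). Of the 9 genes for ATF4, the eIF2α kinases and their regulators, 0 were called, beside 7.04% of all genes. In edgeR 3 of them had an unadjusted p under 0.05, beside 26.1% of all genes. With the trends removed 1 was called, beside 11.3%.

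**Figure D4:**
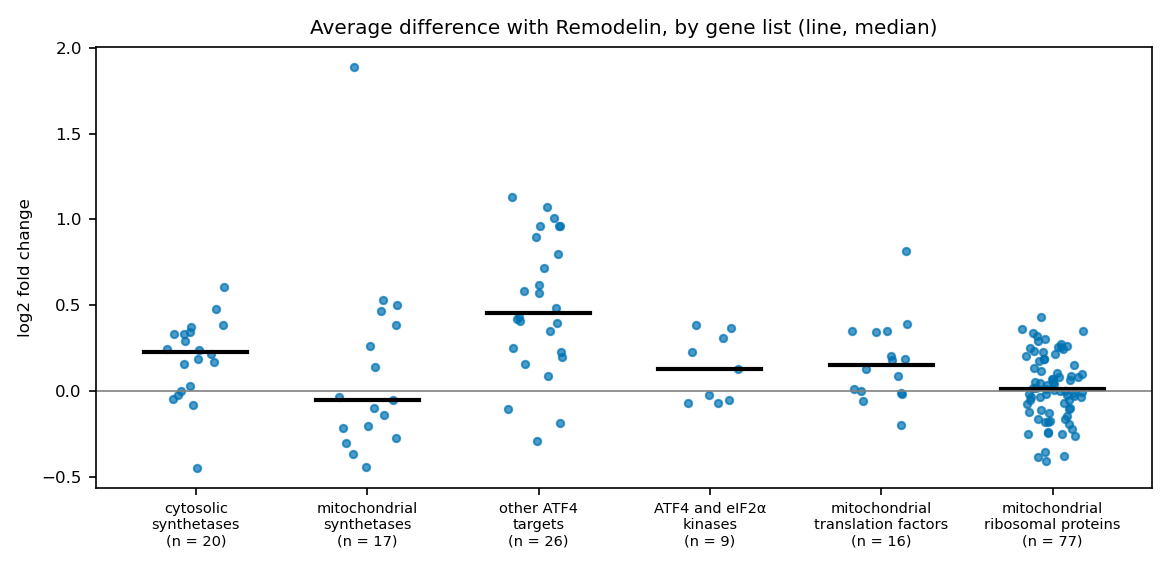
Average log2 fold change with Remodelin of every tested gene (points) in 6 lists, with the list median (line); the vertical axis is log2. The medians are 0.23 for cytosolic synthetases, -0.055 for mitochondrial synthetases and 0.45 for other ATF4 targets.

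Promoter sequence was read for the synthetases, since ATF4 acts with C/EBP partners through a composite element. RefSeq windows of 250 bases before to 50 after the start (GRCm38.p6) were matched by symbol for 27 of the 37 genes, 13 cytosolic and 14 mitochondrial. The letters TGATGNAA, searched on both strands, were present for 5 of the 13 cytosolic genes (Aars, Gars, Iars, Tars and Yars). They were present for 0 of the 14 mitochondrial genes and in 3.97% of all 32851 windows. A synthetase counted if any of its windows matched, while the background share counts single windows. The stretches below are the 250 bases before the start of 3 genes that hold the match and of Eprs and Farsa, which were called and have none there, followed by 30 bases around the match that lies after the start of Iars and Yars. Capitals mark the match, read on the gene's strand, and all run 5′ to 3′.
Gars (chr6:55037751-55038000, + strand): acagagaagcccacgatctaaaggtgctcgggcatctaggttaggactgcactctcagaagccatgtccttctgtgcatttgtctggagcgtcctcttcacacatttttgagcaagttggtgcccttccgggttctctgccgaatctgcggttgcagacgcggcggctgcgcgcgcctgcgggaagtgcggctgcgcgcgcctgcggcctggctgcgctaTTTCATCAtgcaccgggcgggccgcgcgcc
Aars (chr8:111033592-111033841, + strand): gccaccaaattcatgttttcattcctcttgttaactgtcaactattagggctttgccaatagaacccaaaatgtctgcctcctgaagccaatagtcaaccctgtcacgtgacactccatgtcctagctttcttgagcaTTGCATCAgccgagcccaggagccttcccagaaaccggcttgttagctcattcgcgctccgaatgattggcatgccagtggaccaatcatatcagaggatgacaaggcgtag
Tars (chr15:11399659-11399908, - strand): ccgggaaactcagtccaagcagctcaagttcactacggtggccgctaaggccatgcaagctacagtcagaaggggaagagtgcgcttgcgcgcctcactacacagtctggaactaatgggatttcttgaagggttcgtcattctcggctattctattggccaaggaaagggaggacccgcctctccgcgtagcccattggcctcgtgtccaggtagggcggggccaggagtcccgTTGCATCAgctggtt
Eprs (chr1:185362794-185363043, + strand): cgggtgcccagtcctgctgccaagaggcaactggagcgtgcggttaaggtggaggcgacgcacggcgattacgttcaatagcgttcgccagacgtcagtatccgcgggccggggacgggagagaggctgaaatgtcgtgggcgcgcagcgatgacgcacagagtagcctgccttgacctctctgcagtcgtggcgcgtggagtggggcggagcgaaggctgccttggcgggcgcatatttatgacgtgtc
Farsa (chr8:84856736-84856985, + strand): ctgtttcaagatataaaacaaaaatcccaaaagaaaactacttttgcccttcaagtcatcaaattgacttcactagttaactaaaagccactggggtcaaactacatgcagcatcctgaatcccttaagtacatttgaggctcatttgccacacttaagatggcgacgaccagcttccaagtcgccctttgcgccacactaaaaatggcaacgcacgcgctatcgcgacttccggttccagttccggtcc
Iars (chr13:49682126-49682155, + strand): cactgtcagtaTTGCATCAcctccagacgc
Yars (chr4:129189895-129189924, + strand): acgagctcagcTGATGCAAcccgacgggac

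The match began 30 bases before the start in Gars, 112 before it in Aars with another 10 after, and 15 before it in Tars. Of these 5 genes Gars rose in the main fit, Aars and Iars also with the trends removed, and Tars and Yars in neither, at 0.34 ± 0.14 and 0.03 ± 0.11 (SE). A match is letters in a window, and no binding was measured.

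In the mitochondrial class, Wars2, the mitochondrial tryptophanyl enzyme, rose. It was at 6.94, 4.89 and 7.004 CPM in control, 5.94, 4.92 and 5.84 with IFN-γ, 9.22, 8.19 and 9.54 with Remodelin, and 9.49, 7.20 and 7.63 with both, and all 6 Remodelin libraries lay above the other 6. The log2 fold change was 0.53 ± 0.14 (SE; adjusted p = 0.0377, edgeR). Its counts were low, 87 to 165 per library.

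Cars2, the mitochondrial cysteinyl enzyme, fell. It was at 14.1, 18.1 and 21.1 CPM in control, 18.3, 17.3 and 15.9 with IFN-γ, 14.5, 12.3 and 12.7 with Remodelin, and 12.1, 13.4 and 12.1 with both. Only Remodelin replicate 1 and control replicate 1 crossed between the groups. The log2 fold change was -0.44 ± 0.12 (SE; adjusted p = 0.0416, edgeR).

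Lars2, the mitochondrial leucyl enzyme, had the largest fold change and the widest spread. It was at 317, 188 and 504 CPM in control, 89.9, 95.5 and 118 with IFN-γ, 208, 949 and 798 with Remodelin, and 179, 104 and 1865 with both. The log2 fold change was 1.89 ± 0.53 (SE; adjusted p = 0.041, edgeR). Without Remodelin_IFNg replicate 3 it was 0.72 ± 0.30 (SE; adjusted p = 0.152, edgeR), and limma-voom gave 1.25 ± 0.53 (adjusted p = 0.149).

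Ribosomal RNA-related loci were read beside Lars2. AY036118, such a locus, was at 18.3, 25.1 and 21.8 CPM in control, 15.7, 20.0 and 16.8 with IFN-γ, 23.1, 49.8 and 40.3 with Remodelin, and 17.6, 18.7 and 47.5 with both, so its 3 highest libraries were the 3 highest for Lars2. Rn18s-rs5, chosen after the data were seen, was highest in Remodelin_IFNg replicate 3 (28580 CPM) and control replicate 3 (22240 CPM) and lay between 5107 and 12120 CPM elsewhere. The mitochondrial rRNA gene mt-Rnr2 was at 245, 314 and 248 CPM in the IFN-γ libraries, where Lars2 was lowest, and at 101, 151 and 124 CPM in the 3 highest Lars2 libraries, and mt-Rnr1 was at 180 to 192 and 114 to 191 CPM in the same libraries. The part of these loci in the Lars2 value was not tested.

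**Figure D5:**
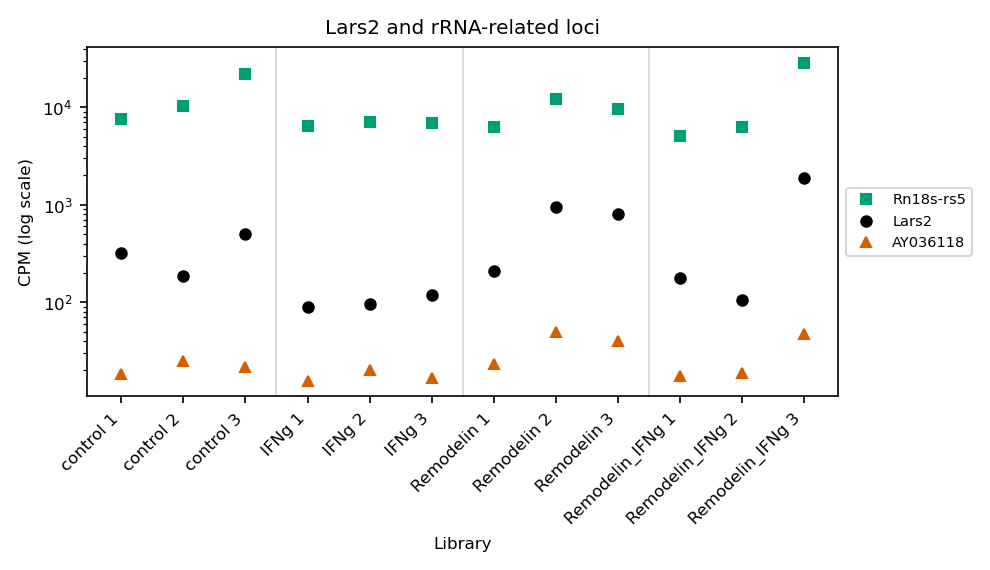
CPM (log axis) of Lars2 and the rRNA-related loci Rn18s-rs5 and AY036118 in each library. Lars2 runs from 89.9 to 1865 CPM, and its highest library, Remodelin_IFNg replicate 3, is also the highest for Rn18s-rs5.

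Rars2, the mitochondrial arginyl enzyme, missed the threshold at 0.50 ± 0.18 (SE; adjusted p = 0.0935, edgeR). It was at 6.38, 6.19 and 6.52 CPM in control, 6.57, 7.804 and 7.21 with IFN-γ, 6.85, 8.48 and 8.15 with Remodelin, and 17.9, 8.19 and 9.09 with both, so the highest value was again Remodelin_IFNg replicate 1. Hars2, which lies next to Hars in the genome, had -0.06 ± 0.14 (adjusted p = 0.825). It was at 13.6, 13.6 and 14.5 CPM in control, 18.9, 13.9 and 13.2 with IFN-γ, 12.2, 13.3 and 11.9 with Remodelin, and 20.1, 12.3 and 15.3 with both, and the groups overlapped. The remaining mitochondrial genes had log2 fold changes from -0.37 (Sars2) to 0.46 (Nars2).

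The mitochondrial translation machinery around these enzymes was read from lists, beside the 7.04% of all genes called. Of 16 translation and transcription factors 1 rose, the release factor Mtrf1, at 0.81 ± 0.24 (SE; adjusted p = 0.0459, edgeR), and the median was 0.15. Of 77 mitochondrial ribosomal protein genes 0 were called, 8 had an unadjusted p under 0.05, and the median was 0.012. Of 12 editing and tRNA-dependent amino acid enzymes 0 were called and 1 had an unadjusted p under 0.05. Over all genes 26.1% had an unadjusted p under 0.05 in edgeR. With the trends removed the counts were 1 of 16, 6 of 77 (2 higher and 4 lower) and 1 of 12, beside 11.3% of all genes.

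Within single amino acids, the mitochondrial enzyme fell relative to its cytosolic partner for alanine, cysteine and serine. The log2 ratio of Aars2 to Aars differed by -0.47, of Cars2 to Cars by -0.67 and of Sars2 to Sars by -0.65 (each two-sided exact permutation p = 0.005 and 0.0238 adjusted over 19 ratios), and in each pair all 6 Remodelin libraries lay below the other 6. The share of other gene pairs separated in this way is not given here. In the opposite direction, Wars2 to Wars differed by 0.63 and Fars2 to Farsa by 0.31 (exact permutation p = 0.015, adjusted 0.0475). Against Farsb, the other phenylalanyl subunit, Fars2 differed by -0.32 (exact permutation p = 0.025, adjusted 0.0594). In all, 13 ratios did not pass the adjusted threshold, among them Lars2 to Lars at 0.88 (exact permutation p = 0.315).

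With the trends removed, the ratios of Cars2 to Cars, Sars2 to Sars, Fars2 to Farsa and Farsb to Farsa still passed (each adjusted exact permutation p = 0.0475). Aars2 to Aars did not, at -0.37 (adjusted exact permutation p = 0.0543), nor did Wars2 to Wars, at 0.36 (adjusted exact permutation p = 0.137). With 1 library left out, the alanine, cysteine, serine and Farsb to Farsa ratios passed in 12 of 12 fits, Wars2 to Wars in 5 and Fars2 to Farsa in 3.

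Each on its own, the 2 Remodelin comparisons called no synthetase. Without IFN-γ, 0 of 37 passed the adjusted threshold (background 0.846%) and 5 had an unadjusted p under 0.05 (12.7% of all genes). With IFN-γ, 0 passed (background 0.364%) and 14 had an unadjusted p under 0.05 (16.2%). The medians were 0.20 and 0.26 for the cytosolic genes and -0.069 and -0.024 for the mitochondrial ones, from separate libraries. The difference between the 2 Remodelin effects was called for 0 of 37 genes (background 0.00742%), and 0 had an unadjusted p under 0.05 (2.3%).

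Eprs changed by 0.69 ± 0.23 without IFN-γ and 0.53 ± 0.23 with it, Gars by 0.30 ± 0.13 and 0.36 ± 0.13, Farsa by -0.41 ± 0.15 and -0.49 ± 0.15, Wars2 by 0.52 ± 0.20 and 0.54 ± 0.21 and Cars2 by -0.43 ± 0.18 and -0.45 ± 0.18 (log2, SE). For each of these 5 genes the 2 values differed by less than 1 SE. Lars2, the other called gene, changed by 0.95 ± 0.73 and 2.82 ± 0.78, and the difference of 1.87 ± 1.03 had an adjusted p of 1 (edgeR). In the authors' deposited table, Farsa was lower by -0.43 with Remodelin and IFN-γ against IFN-γ (adjusted p = 0.0486), and no synthetase was listed under 0.05 for Remodelin against control.

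No synthetase was called between the libraries labelled IFN-γ and control (0 of 37, background 0.0148%), and 3 had an unadjusted p under 0.05 (5.37%). Among the Remodelin libraries, IFN-γ also gave 0 of 37 (background 0%) and 3 at an unadjusted p under 0.05 (7.74%). These comparisons share libraries with the Remodelin comparisons.

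Wars was at 83.0, 94.9 and 86.1 CPM in control, 92.3, 81.6 and 78.4 with IFN-γ, 80.8, 101 and 77.5 with Remodelin, and 56.6, 86.7 and 85.4 with both. The groups overlapped, and the log2 difference of IFN-γ against control was -0.06 ± 0.17 (SE; adjusted p = 0.976, edgeR). Irf1, a response gene read beside it, differed by 0.12 ± 0.17 (SE; adjusted p = 0.948). With Remodelin Wars changed by -0.08 ± 0.12 (SE; adjusted p = 0.677).

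Dars, the aspartyl enzyme, was at 20.2, 23.9 and 19.9 CPM in control and 28.1, 34.1 and 35.9 with IFN-γ. The 3 IFN-γ libraries lay above the 3 controls, as for 9.18% of all genes, with a log2 difference of 0.62 ± 0.23 (SE; adjusted p = 0.889, edgeR). In the authors' deposited table the same comparison lists Dars at 0.51 (adjusted p = 0.0302) and Lars2 at -0.71 (adjusted p = 0.0177), where edgeR gave Lars2 -1.73 ± 0.75 (SE; adjusted p = 0.889).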

How the data were processed

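The deposited table gives read counts per gene and FPKM for 12 libraries, per the file headers. The submitters' processing notes name CASAVA 1.8, HISAT2 2.0.5 and featureCounts 1.5.0-p3. Build, strand setting and the treatment of multi-mapping reads were not given in the sources used here, so genes that overlap a neighbour are uncertain. The authors' deposited log2 fold changes and adjusted p-values were copied, not recomputed.

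Groups came from the treatment label. Counts were scaled by TMM, filtered with filterByExpr and tested with edgeR 4.0.16 (quasi-likelihood, a mean per group, 12 libraries in 1 fit), with Benjamini-Hochberg adjustment over 13474 genes. CPM are relative to the TMM-scaled library size. The FPKM were used only for levels between genes. The scripts were tested on simulated data. Alternatives were DESeq2 1.42.0, limma 3.58.1 (voom), DESeq2 size factors, all genes with any count, genes with 50 reads in at least 3 libraries, a replicate block, removal of GC and transcript length trends (lowess span 0.3, GENCODE transcripts, 135 genes without a value), fits to only the 2 groups compared, and fits without each library in turn. Partner ratios were compared on log2 CPM (prior count 2) by exact permutation.

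The gene family and the lists were chosen with earlier results of these data known, although the rule for members reads symbols only. Values per library were given for the cytosolic genes called in the average Remodelin effect, the 4 mitochondrial genes of smallest p there, and Wars, Kars, Gars, Qars, Hars, Hars2 and Lars2; of each other list, fold changes were given for the called genes, up to 4 by smallest p, and for Atf4 and Eif2ak4. Aars, Cars, Farsb, Dars, Tars and the other synthetases were named after their values were seen.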

Additional observations from a re-analysis of the deposited data

How the results depend on the processing

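In the average Remodelin comparison 3 cytosolic and 3 mitochondrial genes were called. A replicate block left 1 cytosolic (Farsa) and 1 mitochondrial gene (Wars2), removal of the GC and length trends gave 11 cytosolic genes, and DESeq2 gave 7 cytosolic genes. Leaving out each library gave 0 to 7 cytosolic and 0 to 4 mitochondrial genes. Fewer libraries are fitted there. The cause of the other shifts was not tested. Without a count filter, 1 cytosolic and 1 mitochondrial gene were called for Remodelin against control, 1 mitochondrial gene for the same comparison in the presence of IFN-γ, 1 for IFN-γ against control and 1 for the difference between the Remodelin effects. With the trends removed, 2 cytosolic genes were called for Remodelin against control and 3 for it in the presence of IFN-γ. With the 2 groups alone, 1 mitochondrial gene, Lars2, was called for IFN-γ against control (log2 -1.75, adjusted p = 0.00798, edgeR). No called value changed sign. The cytosolic median stayed between 0.17 and 0.28 and the mitochondrial one between -0.1 and 0.029 when 1 choice was changed at a time; with the trends removed and a library left out as well, they ran from 0.23 to 0.29 and from -0.045 to 0.042. Over all genes, the trend removal gave 679 higher and 840 lower calls against 302 and 647. The replicate block called 578 of all genes, DESeq2 1344, and the fits without 1 library from 298 to 1960, against 949 in the main fit. The deviations gave no sign that replicate numbers pair the libraries, but they cannot show whether same-numbered libraries shared cultures or mice. Deviations of same-numbered libraries correlated at -0.547 to 0.261, with 5 of 18 pairs over 0.1. Those of differently numbered libraries correlated at -0.318 to 0.41, with 12 of 36 over 0.1. Nars2, with 48 to 132 counts a library, was the least precisely measured by counting.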
